A study of Mus musculus with 24 samples.

Results

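The genes described here are 7 of the 55401 in the count table: Tmod3 and Tmod1, which encode tropomodulins, Capza1, Capza2 and Capzb, which encode the subunits of capping protein, and Tpm1 and Tpm4, which encode tropomyosins. They were picked by gene name. Tmod3 stood first because its difference between genotypes in these libraries was already known, so its genotype values are given as a description without a test.

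An actin filament has a fast-growing barbed end and a slow-growing pointed end. Tropomodulins cap the pointed end, and bind tropomyosin as they do so. Capping protein, a dimer of an alpha and a beta subunit, caps the barbed end. Tropomyosins are coiled-coil dimers that lie along the filament and set which other proteins can bind it. In T cells the actin network under the membrane is rebuilt when the antigen receptor is engaged, and filament ends are capped and uncapped as it turns over.

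Gene counts came from poly(A) RNA sequencing of CD8+ and CD4+ T cells sorted from the spleen of C57BL/6 mice aged 12 weeks. All cells had been cultured for 2 days with antibodies to CD3 and CD28. Knockout (KO) cells carried CD4.Cre and floxed alleles of Pou2af1 on both chromosomes (CD4.Cre+.Pou2af1fl/fl), heterozygous (Het) cells carried CD4.Cre with 1 floxed allele (CD4.Cre+.Pou2af1fl/+), and wild-type (WT) cells were CD4.Cre-.Pou2af1fl/fl. CD4.Cre is active in developing thymocytes before the CD4 and CD8 lineages part, so both kinds of cell lose the floxed segment, whose extent is not given in the sources used here. KO and Het cells carry Cre and WT cells do not, so Cre and the loss of a Pou2af1 allele cannot be told apart in a comparison of either with WT. By these genotypes only Het cells carry an allele that is not floxed. In a comparison with Het, that allele with the sequence linked to it and the number of Pou2af1 alleles lost cannot be told apart. Pou2af1 encodes a coactivator of the octamer-binding POU factors, best known in B cells. There were 24 libraries, 4 for each of the 6 combinations of cell type and genotype.

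Libraries held 11944120 to 21760793 gene counts. The labels do not say whether the 4 libraries of a group came from separate mice, so p-values measure only the spread between these libraries. A count of 3, taken as the floor of detection in a library, corresponded to 0.138 to 0.251 CPM, the count scaled to a common library total, and such floors cover counting error only. Pou2af1 followed the labels: it stood at 0.759 to 2.43 CPM in CD8 KO, 13.4 to 16.4 CPM in CD8 Het and 21.9 to 35.1 CPM in CD8 WT libraries. Among CD4 libraries it stood at 1.30 to 3.78 CPM in KO, 15.6 to 24.7 CPM in Het and 28.5 to 49.3 CPM in WT libraries. The T cell markers Cd3d, Cd3e, Cd3g, Cd247, Cd5 and Lck were present in every library. Cd8a and Cd8b1 summed to 939 to 1083 CPM in CD8 libraries and 7.63 to 14.9 CPM in CD4 libraries, and Cd4 and Zbtb7b to 532 to 639 CPM in CD4 libraries. Cd4 and Zbtb7b together reached 17.5 CPM in 1 CD8 KO library and at most 7.47 CPM in the other CD8 groups. B cell markers summed to 6.77 to 31.4 CPM, and those of macrophages and neutrophils to at most 0.779 CPM. In bulk RNA, fewer cells that express a gene and less RNA per cell cannot be told apart.

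Tmod3, the tropomodulin of most non-muscle cells, was at 99.3% of the WT mean in CD8 KO and 104.6% in CD4 KO cells, and at 48.7% of it in CD8 Het and 54.0% in CD4 Het cells. The gene (ENSMUSG00000058587.9) lies on the minus strand of chromosome 9 at 75497707 to 75559657 in GRCm38. Its levels are given as normalised CPM, with library totals scaled by TMM factors. In CD8 cells, Tmod3 was at 218, 196, 232 and 232 CPM in KO libraries 1 to 4, at 109.8, 107, 113 and 101 CPM in Het libraries, and at 206, 218, 219 and 242 CPM in WT libraries. In CD4 cells, it was at 219.6, 216, 214 and 260.0 CPM in KO libraries 1 to 4, at 119, 115, 122 and 114 CPM in Het libraries, and at 222, 193, 229 and 227 CPM in WT libraries. The 8 Het libraries were the 8 lowest of the 24, and no Het library reached any KO or WT library of either cell type. KO and WT libraries overlapped in both cell types.

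The mean level of Tmod3 in CD8 cells was 219 ± 17.3 CPM in KO, 108 ± 5.25 CPM in Het and 221 ± 14.9 CPM in WT libraries (SD, n = 4 each). The CD4 mean was 227 ± 21.8 CPM in KO, 118 ± 3.76 CPM in Het and 218 ± 16.7 CPM in WT libraries (SD, n = 4 each). The Het groups were also the least variable, with coefficients of variation of 4.88% in CD8 and 3.19% in CD4 cells, against 6.76% to 9.58% in the other 4 groups.

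**Figure D1:**
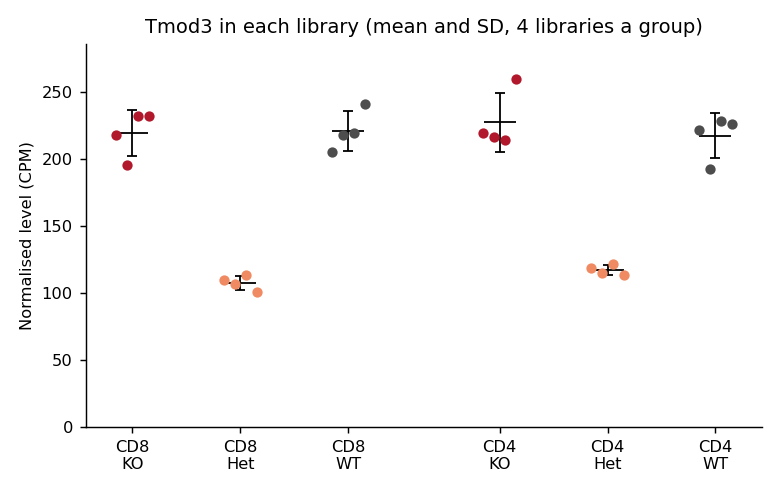
Tmod3 level in each of the 24 libraries, in TMM-normalised CPM, by cell type and genotype. Points are libraries, bars are the mean and SD of 4 libraries. The Het libraries sit between 101 and 122 CPM, below every KO and WT library (193 to 260.0 CPM).

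On the log2 scale the Het minus WT difference of Tmod3 was -1.04 (SE 0.07) in CD8 and -0.90 (SE 0.07) in CD4 cells. KO minus Het was 1.03 (SE 0.07) in CD8 and 0.95 (SE 0.07) in CD4 cells. KO minus WT was -0.01 (SE 0.07) in CD8 and 0.06 (SE 0.07) in CD4 cells, and its 95% interval ran from -0.17 to 0.15 and from -0.10 to 0.22. The comparisons with WT share the WT libraries, and those with Het share the Het libraries.

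The rank of the Het difference is a description of a gene chosen for it. Over all genes tested, 43 of 12612 had a larger absolute Het minus WT change than Tmod3 in CD8 cells and 193 of 12719 in CD4 cells. For KO minus Het these were 101 in CD8 and 84 in CD4 cells, and for KO minus WT 11788 and 7368. Among genes with a mean of at least 32 CPM, 3 of 5823 had a larger absolute Het minus WT change than Tmod3 in CD8 cells and 10 of 5892 in CD4 cells. For KO minus Het these were 7 of 5823 in CD8 cells and 1 of 5892 in CD4 cells. For KO minus WT they were 5303 of 5823 in CD8 and 2435 of 5892 in CD4 cells. Of all genes tested, 193 and 818 genes had Het and WT libraries that did not overlap, which is 1.53% of genes in CD8 and 6.43% in CD4 cells. For KO against Het this share was 2.75% in CD8 and 2.81% in CD4 cells, and for KO against WT 2.05% and 1.54%.

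The low level of Tmod3 in Het cells was seen in library numbers 1 to 4 and in both sexes. Set against the WT library of the same number, each CD8 Het library held between 0.418 and 0.534 of it and each CD4 Het library between 0.502 and 0.598. By Xist and Ddx3y, each Het group held 2 female and 2 male libraries, and each KO and WT group 1 female and 3 male. Tmod3 was at 107 and 109.8 CPM in female and 101 and 113 CPM in male CD8 Het libraries. It was at 115 and 119 CPM in female and 114 and 122 CPM in male CD4 Het libraries. Female WT libraries stood at 219 CPM in CD8 and 229 CPM in CD4 cells, among the male ones or just above them. The female KO library stood at 196 CPM in CD8 cells, below the male ones (218 to 232 CPM). In CD4 cells it stood at 216 CPM, among the male ones (214 to 260.0 CPM). Over 18 other ways of processing the counts, the Het minus WT difference ran from -1.11 to -0.97 in CD8 and from -0.95 to -0.83 in CD4 cells.

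Few stretches of Tmod3 recur in other genes. Of the 50-base stretches of Tmod3 transcripts, 0.943% also occur in another annotated gene, and the only gene model inside it, Gm48789, had at most 1 count in a library. Tmod3 lies 24.3 Mb from Pou2af1 on the same chromosome, and 8.45 Mb from Tpm1.

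Genes next to Tmod3 did not pass the test between genotypes. Of 44 annotated genes that start within 1 Mb of either end, 9 were abundant enough to test. By edgeR's quasi-likelihood F test, with p-values adjusted after Benjamini and Hochberg over all genes and called under 0.05, 0 of 9 were called in each of the 6 genotype comparisons. Of all genes tested, 0.0634% were called for KO and 0.0634% for Het against WT and 0.0159% for KO against Het in CD8 cells. In CD4 cells these shares were 0.0708%, 0.0865% and 0.0157%. With so few genes called at large, a count of 0 among 9 is no result about these genes. At an unadjusted p under 0.05, edgeR found 1 of the 9 in each of 4 comparisons and 0 in the other 2. In CD4 cells these were Gm7972 for KO and Leo1 for Het against WT. In CD8 cells Lysmd2 was found for Het against WT and for KO against Het. Over all genes, 2.44%, 8.68%, 1.74% and 6.84% were past this level in those 4 comparisons. DESeq2 and limma also called 0 of the 9 after adjustment. Their median Het minus WT change was -0.07 in CD8 and -0.02 in CD4 cells, against 0.00 and -0.02 over all genes tested. On the lower coordinate side the nearest genes with counts were Gm7972 at 11.0 kb, Leo1 at 31.3 kb and Mapk6 at 87.7 kb. Gm7972 had a Het minus WT difference of -0.36 (SE 0.29) in CD8 and 0.44 (SE 0.27) in CD4 cells. Leo1, a subunit of the PAF1 transcription elongation complex, had 0.01 (SE 0.07) and 0.16 (SE 0.06). Mapk6, an atypical MAP kinase, had -0.08 (SE 0.11) and 0.13 (SE 0.16).

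On the other side the 2 tested genes, Lysmd2 at 66.1 kb and Gm3671 at 134 kb, had negative Het minus WT values without passing. Those of Gm3671 were -0.77 (SE 0.43) in CD8 and -0.65 (SE 0.34) in CD4 cells. Unlike Tmod3, Gm3671 had negative KO minus WT values too, -0.58 (SE 0.42) in CD8 and -0.62 (SE 0.34) in CD4 cells. Lysmd2, of the LysM domain family, was at 3.43, 4.87, 3.90 and 4.07 CPM in CD8 KO, at 2.82, 2.89, 1.73 and 1.96 CPM in CD8 Het and at 4.15, 4.75, 2.87 and 2.89 CPM in CD8 WT libraries. The highest Het library stood just above the lowest WT library, and every KO library above every Het one. Its Het minus WT change was -0.64 (SE 0.23, unadjusted p = 0.0168 by edgeR) in CD8 and -0.27 (SE 0.25, unadjusted p = 0.290 by edgeR) in CD4 cells. Its KO minus Het change in CD8 cells was 0.79 (SE 0.23, adjusted p = 0.622 by edgeR). Lysmd2 had 23 to 70 counts a library.

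**Figure D2:**
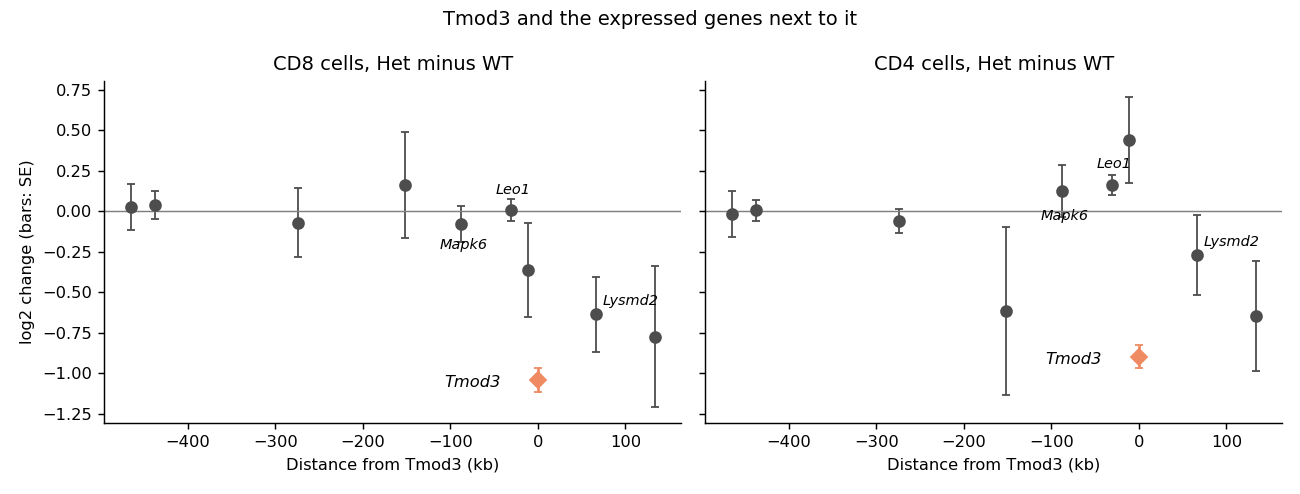
Het minus WT log2 change of Tmod3 (diamond) and of the 9 tested genes that start within 1 Mb of it (circles), against the distance from Tmod3 in kb, negative towards lower coordinates. Left, CD8 cells. Right, CD4 cells. Bars are standard errors. Tmod3 lies at -1.04 and -0.90, Leo1 at 0.01 and 0.16, Lysmd2 at -0.64 and -0.27.

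Over the 24 libraries, the 5 genes of 10487 whose log2 level was most like that of Tmod3 were Rbm44 (Pearson r = 0.64), Acp6 (0.58), Ogfod3 (0.57), Lysmd2 (0.57) and Hnrnpa1 (0.56). The 3 least alike were Pik3r3 (r = -0.71), Bag3 (-0.64) and Apaf1 (-0.62). The 24 points share 6 groups and are not independent. Rbm44, an RNA-binding protein gene of low level, averaged 8.92 CPM in CD8 KO, 4.85 CPM in CD8 Het and 7.70 CPM in CD8 WT libraries, and 7.80, 4.26 and 7.11 CPM in CD4 KO, Het and WT libraries. Hnrnpa1, an abundant splicing regulator, averaged 164, 147 and 160.0 CPM in CD8 KO, Het and WT libraries. Ranked by Spearman's rho, 1 of these 5 was again among the 5 most alike and 0 of these 3 among the 3 least alike. The other 6 genes described here had r between -0.32 and 0.02 with Tmod3.

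Tmod1, the tropomodulin known from red cells and striated muscle, was the only other tropomodulin above the floor throughout. Tmod2 had at most 2 counts and Tmod4 at most 10 counts in any library. Tmod1 (ENSMUSG00000028328.13, chromosome 4, 46038935 to 46116032, plus strand) was at 22.2, 16.1, 12.7 and 12.6 CPM in CD8 KO libraries, against 3.90, 3.41, 4.66 and 4.12 CPM in CD4 KO libraries. In Het cells it was at 20.2, 16.7, 17.2 and 14.1 CPM in CD8, against 4.36, 3.67, 4.88 and 6.22 CPM in CD4 libraries. In WT cells it was at 21.6, 15.2, 16.8 and 12.4 CPM in CD8, against 4.17, 5.28, 3.49 and 5.78 CPM in CD4 libraries. All 12 CD8 libraries lay above all 12 CD4 libraries.

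Tmod1 was higher in CD8 than in CD4 cells by 1.98 in KO (SE 0.21, adjusted p = 3.99e-07 by edgeR's quasi-likelihood test), 1.84 in Het (SE 0.21, adjusted p = 6.85e-07) and 1.81 in WT cells (SE 0.21, adjusted p = 8.99e-07), on the log2 scale. That is 3.95, 3.57 and 3.53 times the CD4 mean. The call held in all 18 alternatives of each comparison, over which the change ran from 1.49 to 2.39. Between genotypes Tmod1 did not pass: its changes ran from -0.24 to 0.05, with standard errors of 0.20 to 0.21.

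Of the 50-base stretches of Tmod1, 31.4% also occur on the opposite strand in Tstd2, which overlaps it, and the strand setting of the counts is not given in the sources used here. Tstd2 was at 63.3 to 91.0 CPM in all libraries, and its CD8 minus CD4 change was 0.03 in KO, -0.05 in Het and 0.09 in WT cells, none of them called. Red cell markers, of which 8 were listed, summed to 0.422 to 2.36 CPM in CD8 and 0.202 to 1.42 CPM in CD4 libraries. Of these, Epor reached 19 counts, Hbb-bs 12 and Klf1 7 counts in a library, while Hbb-bt, Hba-a1 and Hba-a2 had at most 2. Natural killer cell markers, 4 genes, summed to 49.3 to 96.9 CPM in CD8 and 12.1 to 35.9 CPM in CD4 libraries, most of it Eomes, which CD8 T cells also express. Ncr1 and Klrb1c were at 0 in 14 and 13 of the 24 libraries and had at most 7 counts, while Klre1 reached 7.34 CPM (104 counts) and was at 0 in 1 library. Stroma and muscle markers, 6 genes, summed to 38.8 to 71.5 CPM in CD8 and 46.1 to 85.6 CPM in CD4 libraries, nearly all of it Pecam1, which T cells also express, while Myh11 reached 2.56 CPM (36 counts), and Des and Cnn1 had at most 1 count. Platelet markers, 5 genes, summed to at most 1.03 CPM, with Gp1bb and Gp9 at 0 in all 24 libraries. The part of these cells in the result was not tested.

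Per kilobase of exon, Tmod3 made up most of the tropomodulin RNA, and less of it in Het cells. Its share of Tmod1 to Tmod4 was 82.8% ± 4.54 in KO, 68.1% ± 2.98 in Het and 82.0% ± 4.03 in WT CD8 cells (SD, n = 4 each). In CD4 cells it was 94.3% ± 0.796 in KO, 88.1% ± 2.87 in Het and 93.3% ± 1.46 in WT libraries (SD, n = 4 each). Tmod3 stood at 5.20 times the level of Tmod1 in CD8 KO, 2.26 times in CD8 Het and 4.99 times in CD8 WT libraries. These shares rest on Tmod3 and so describe the same difference.

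The promoter windows of RefSeq (GRCm38.p6, 250 bases before to 50 after each gene's start) held an entry for Tmod1, Tpm1, Tpm4, Capza1, Capza2 and Capzb. They were searched on both strands for the POU octamer ATGCAAAT, the serum response factor CArG box and the RUNX core TGTGGT, sites of factor families relevant to Pou2af1, to actin genes and to CD8 T cells. The octamer and the CArG box were in 0 of the 6 windows, and in 1.74% and 1.63% of all 32851 windows. The RUNX core was in 1 of the 6, that of Tmod1, and in 16.8% of all windows. It is shown because Tmod1 is the gene of the set that differed most between CD8 and CD4 cells. The stretch is chr4:46039041-46039070 on the plus strand, capitals mark the reverse complement of the RUNX core, and its first base is at position -169 from the start in RefSeq, 46039222. The gene as drawn in GENCODE M21 starts further upstream, at 46038935, so the same base lies 118 bases inside it.
Tmod1: acaaggcagggaACCACAcattcccctgcc
A match of 6 letters is a description of this window only.

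Capzb, Capza2 and Capza1, the barbed end cappers, were all expressed, and none differed between genotypes past the test. Capza3, the alpha subunit of testis, was at 0 counts in every library. Capzb (ENSMUSG00000028745.18, chromosome 4, 139192899 to 139291818, plus strand) encodes the single beta subunit. Its levels were 354, 326, 344 and 313 CPM in CD8 KO, 363, 360.4, 323 and 388 CPM in CD8 Het and 355, 345, 355 and 314 CPM in CD8 WT libraries. Those of CD4 cells were 329, 333, 317 and 288 CPM in KO, 329.8, 332, 290.2 and 284 CPM in Het and 313, 346, 296 and 289 CPM in WT libraries. Within each cell type the genotypes overlapped. The CD8 minus CD4 change was 0.08 in KO (SE 0.07, adjusted p = 0.501 by edgeR), 0.22 in Het (SE 0.07, adjusted p = 0.0258) and 0.14 in WT cells (SE 0.07, adjusted p = 0.161). By edgeR the Het call did not hold without CD4 Het library 3 (adjusted p = 0.0862) or 4 (0.0982), without CD8 Het library 1 (0.0595), 2 (0.0560) or 4 (0.0938), in libraries 1 and 2 alone (0.176), or with no filter on low counts (0.0669).

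Capza2 (ENSMUSG00000015733.13, chromosome 6, 17636234 to 17666972, plus strand) was the alpha subunit with the higher measured level. This order is uncertain, since 64.5% of the 50-base stretches of Capza1 occur in other gene models. Capza2 was at 397, 369, 427 and 444 CPM in CD8 KO, 358, 346, 412 and 411 CPM in CD8 Het and 369.7, 374, 399 and 433 CPM in CD8 WT libraries. The CD4 libraries were at 358, 338, 351 and 399.5 CPM in KO, 357, 352, 396 and 376 CPM in Het and 333, 302, 325 and 340.1 CPM in WT libraries. All 4 CD4 WT libraries lay below all CD4 Het libraries and below all CD8 libraries, and overlapped only slightly with CD4 KO. Capza2 was higher in CD8 than in CD4 WT cells by 0.28 (SE 0.07, adjusted p = 0.00712 by edgeR). The change was 0.18 in KO (SE 0.07, edgeR adjusted p = 0.0853) and 0.04 in Het cells (SE 0.07, adjusted p = 0.686). Blocking on the replicate number, the KO change was 0.18 and passed (edgeR adjusted p = 0.00879). It also passed without CD4 KO library 4 (edgeR adjusted p = 0.0385) or CD8 KO library 2 (0.0244).

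Capza1 (ENSMUSG00000070372.11, chromosome 3, 104822779 to 104864505, minus strand) was higher in CD8 cells of every genotype. It was at 119.7, 103, 122 and 111 CPM in CD8 KO, against 90.6, 97.2, 109.6 and 99.7 CPM in CD4 KO libraries. In Het cells it was at 119.8, 115, 121 and 119 CPM in CD8, against 97.4, 95.9, 101 and 97.8 CPM in CD4 libraries. In WT cells it was at 107, 122, 120.3 and 114 CPM in CD8, against 97.2, 91.6, 100.3 and 96.4 CPM in CD4 libraries. CD8 and CD4 libraries overlapped in KO and not in Het or WT.

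The CD8 minus CD4 change of Capza1 was 0.20 in KO (SE 0.06, adjusted p = 0.0197 by edgeR), 0.28 in Het (SE 0.06, adjusted p = 0.00118) and 0.27 in WT cells (SE 0.06, adjusted p = 0.00210). The Het and WT calls held in all alternatives. By edgeR the KO call did not hold without CD4 KO library 1 (adjusted p = 0.0815), CD8 KO library 1 (0.0526) or CD8 KO library 3 (0.0538), in libraries 1 and 2 (0.0540) or 3 and 4 (0.210) alone, in a fit of those 8 libraries (0.129), or with no filter (0.0665). Of its 50-base stretches 64.5% occur in other gene models, mostly the pseudogene Capza1-ps1 (Gm3608 in GENCODE M21, with the same identifier), which had 30 to 69 counts a library. Reads that map to several places stand in a summary line of the count table and not with a gene, so the level of Capza1 is uncertain.

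Per kilobase, the measured level of the alpha subunits together came close to that of the beta subunit in every group. The uncertain level of Capza1 is part of this ratio, so the ratio does not give the proportion of the subunits. Capza1 plus Capza2 over Capzb was 0.986 ± 0.0896 in KO, 0.890 ± 0.103 in Het and 0.945 ± 0.104 in WT CD8 cells (SD, n = 4 each). The CD4 values were 0.918 ± 0.116 in KO, 0.955 ± 0.117 in Het and 0.862 ± 0.101 in WT libraries (SD, n = 4 each). These values differed by about their spread. Tmod3 over Capzb, a pointed against a barbed end capper, was 0.195 ± 0.0192 in KO, 0.0895 ± 0.0110 in Het and 0.192 ± 0.0245 in WT CD8 cells, and 0.214 ± 0.0356, 0.113 ± 0.0101 and 0.209 ± 0.0310 in KO, Het and WT CD4 cells (SD, n = 4 each).

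**Figure D3:**
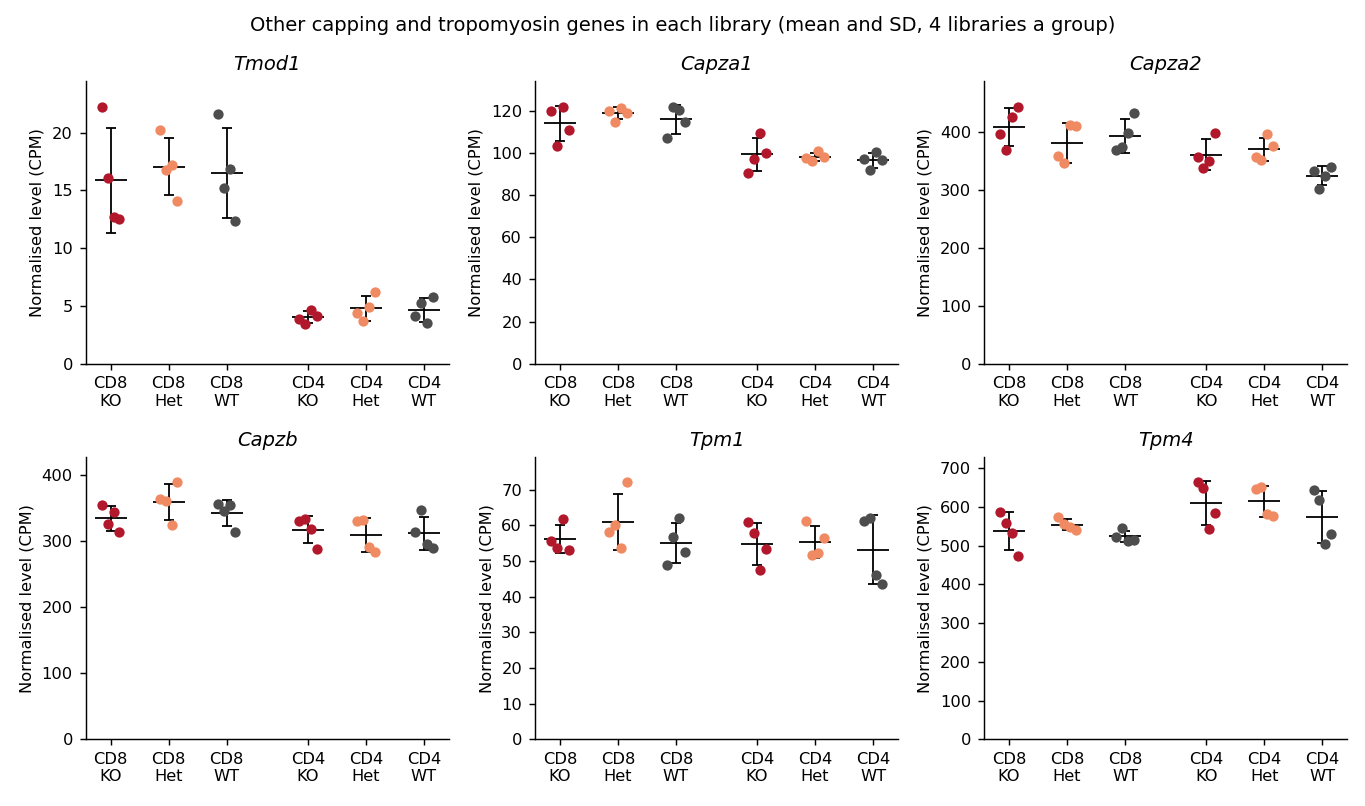
Levels of Tmod1, Capza1, Capza2, Capzb, Tpm1 and Tpm4 in each of the 24 libraries, in TMM-normalised CPM. Points are libraries, bars the mean and SD of 4 libraries. Tmod1 lies at 12.4 to 22.2 CPM in CD8 and 3.41 to 6.22 CPM in CD4 libraries, while the other genes differ little between the groups.

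Tpm4 (ENSMUSG00000031799.10, chromosome 8, 72130174 to 72153142, plus strand), which encodes a short non-muscle tropomyosin, was the most abundant of the 7 genes, per kilobase as well. It was at 588, 559, 533 and 474 CPM in CD8 KO, against 664, 649.8, 543 and 586 CPM in CD4 KO libraries. In Het cells it was at 573, 555, 549 and 542 CPM in CD8, against 647, 651, 582 and 577 CPM in CD4 libraries. In WT cells it was at 524, 546, 512 and 515 CPM in CD8, against 644, 619, 503 and 531 CPM in CD4 libraries. CD8 and CD4 libraries overlapped in KO and WT. In Het the CD8 libraries were all just below the CD4 ones.

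The CD8 minus CD4 change of Tpm4 was -0.18 in KO (SE 0.08, adjusted p = 0.107 by edgeR), -0.15 in Het (SE 0.08, adjusted p = 0.161) and -0.13 in WT cells (SE 0.08, adjusted p = 0.220), so it did not pass. Blocking on the replicate number, it passed by edgeR in KO (-0.18, adjusted p = 0.0173) and in Het (-0.14, adjusted p = 0.0419), and not in WT. In WT the change by edgeR was -0.24 in libraries 1 and 2 alone (adjusted p = 0.00881) and -0.01 in libraries 3 and 4 alone (adjusted p = 0.925). Of its 50-base stretches 15.7% occur in the gene models Gm7809 and Gm26586.

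Tpm1 (ENSMUSG00000032366.15, chromosome 9, 67022590 to 67049406, minus strand), the gene of many muscle and non-muscle tropomyosin isoforms, was at 53.3 to 61.8 CPM in CD8 KO, 53.7 to 72.1 CPM in CD8 Het and 49.0 to 62.0 CPM in CD8 WT libraries. CD4 levels were 47.5 to 61.0 CPM in KO, 51.7 to 61.4 CPM in Het and 43.6 to 62.0 CPM in WT libraries. All groups overlapped. Its CD8 minus CD4 change was 0.03 in KO, 0.14 in Het and 0.05 in WT cells (SE 0.12 each), not called. In CD4 WT cells libraries 1 and 2 stood at 61.2 and 62.0 CPM and libraries 3 and 4 at 46.0 and 43.6 CPM. The CD8 minus CD4 change in WT cells was -0.22 in libraries 1 and 2 alone and 0.35 in libraries 3 and 4 alone.

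Tpm2, a muscle tropomyosin, had 2 to 12 counts a library. Per kilobase, Tpm4 made up 85.9%, 85.9% and 81.2% of Tpm1 to Tpm4 in CD8 KO, Het and WT cells and 87.9%, 88.0% and 83.4% in CD4 KO, Het and WT cells, and Tpm1 between 2.61% and 3.21%. The rest was Tpm3, at 11.0%, 10.8% and 15.9% in CD8 and 9.37%, 9.22% and 13.9% in CD4 KO, Het and WT cells. Tpm3 shares 23.2% of its 50-base stretches with its copy Tpm3-rs7, and read placement between the 2 genes was not tested. The Tpm4 level itself did not pass the test between genotypes.

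Across all 6 genes other than Tmod3, the 36 genotype changes lay between -0.24 and 0.18 on the log2 scale, and 0 of 36 were called by edgeR, with a lowest adjusted p of 0.469. Since at most 0.0865% of all genes were called in any of these comparisons, a count of 0 among 6 genes is no result about these genes. DESeq2 and limma also called 0, as did every other setting tried.

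At an unadjusted p under 0.05, edgeR's quasi-likelihood test found 2 of the 36, both of Capza2 in CD4 cells. These were 0.18 for Het against WT (SE 0.06, unadjusted p = 0.0130 by edgeR) and 0.15 for KO against WT (SE 0.06, unadjusted p = 0.0364 by edgeR). Over all genes, 8.68% and 2.44% were past this level in those comparisons, and 3.66% for KO against Het in CD4 cells. In CD8 cells these shares were 2.89% for KO and 1.74% for Het against WT and 6.84% for KO against Het. Het and WT libraries of Capza2 in CD4 cells were also the single case of 36 without overlap. Over all genes, 6.43% had no overlap in that comparison, and between 1.53% and 2.81% in the other genotype comparisons. The 95% intervals leave room for modest change: for Tmod1 they reached -0.70 at the low and 0.52 at the high end over all genotype comparisons, and for Capzb -0.25 and 0.22.

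**Figure D4:**
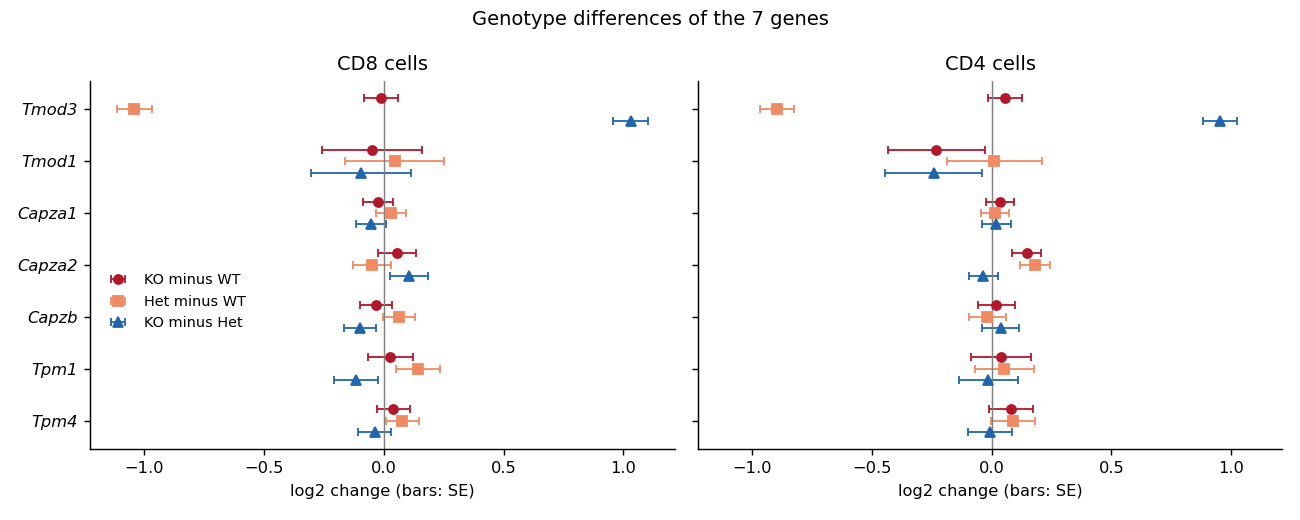
Log2 changes of the 7 genes between genotypes, KO minus WT (circles), Het minus WT (squares) and KO minus Het (triangles), with standard errors. Left, CD8 cells. Right, CD4 cells. Tmod3 lies near -1 for Het minus WT and near 1 for KO minus Het, while all other values lie between -0.24 and 0.18.

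Differences between the cell types were more common. Of the 7 genes, edgeR's quasi-likelihood test called 2 in KO cells (Tmod1 and Capza1), 3 in Het cells (Tmod1, Capza1 and Capzb) and 3 in WT cells (Tmod1, Capza1 and Capza2), all higher in CD8. Over all 13288 genes tested, 24.1% were called in KO, 34.9% in Het and 31.2% in WT cells, with 11.0%, 17.1% and 14.7% higher in CD8 and 13.0%, 17.8% and 16.6% lower. CD8 and CD4 libraries did not overlap for 20.9%, 38.3% and 31.2% of genes. With about 1 gene in 3 called at large, these counts do not set the 7 genes apart.

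Tmod3 itself was not called between the cell types, a comparison that had no part in its choice. Its CD8 minus CD4 change was -0.05 in KO (SE 0.07, 95% interval -0.20 to 0.10, adjusted p = 0.657 by edgeR), -0.13 in Het (SE 0.07, 95% interval -0.28 to 0.03, adjusted p = 0.189) and 0.02 in WT cells (SE 0.07, 95% interval -0.13 to 0.18, adjusted p = 0.837). CD8 and CD4 Het libraries of Tmod3 did not overlap, with 113 CPM as the highest CD8 and 114 CPM as the lowest CD4 library. The difference of the Het effect between CD8 and CD4 cells was -0.15 (SE 0.10), given without a test since it holds the genotype contrast.

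For the other 6 genes, edgeR's quasi-likelihood test of whether a genotype effect differed between CD8 and CD4 cells called 0 of 6 for KO and 0 of 6 for Het, against 0.00753% of all genes for each. The single unadjusted p under 0.05 was that of Capza2 for the Het effect, -0.23 as CD8 minus CD4 (SE 0.11, unadjusted p = 0.0377 by edgeR). The calls of Capza2 in WT but not KO or Het, and of Capzb in Het but not KO or WT, are therefore not shown to differ between genotypes.

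**Figure D5:**
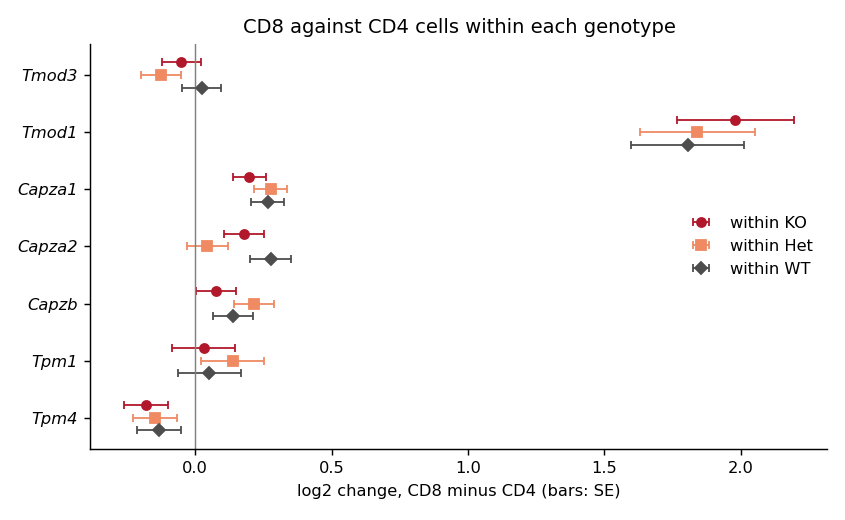
CD8 minus CD4 log2 change of the 7 genes within KO (circles), Het (squares) and WT cells (diamonds), with standard errors. Tmod1 lies between 1.81 and 1.98, Capza1 between 0.20 and 0.28 and Tmod3 between -0.13 and 0.02.

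By level per kilobase of exon, the 7 genes kept one order in most libraries. Tpm4 ranged over 215 to 301 CPM per kb, Capzb over 85.9 to 118, Capza2 over 51.2 to 75.4 and Capza1 over 23.96 to 32.2 CPM per kb, with no overlap between neighbours. The place of Capza1 in this order is uncertain, since 64.5% of its 50-base stretches occur in other gene models. Tmod3 ranged over 9.06 to 23.3 CPM per kb. In CD8 Het cells Tmod3 and Tpm1 did not differ beyond their spread, with 9.66 ± 0.471 for Tmod3 and 9.41 ± 1.21 CPM per kb for Tpm1 (SD, n = 4 each). In CD4 Het cells Tmod3 stayed above Tpm1, with 10.54 ± 0.337 for Tmod3 and 8.55 ± 0.694 CPM per kb for Tpm1 (SD, n = 4 each). Tmod1 was the lowest, at 0.865 to 5.63 CPM per kb.

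Other genes of the actin machinery were followed through 126 listed genes besides the 7. Between genotypes, edgeR's quasi-likelihood test called Tpm3, lower, and Tpm3-rs7, higher, against WT in both KO and Het cells of both types, and 0 of 92 (CD8) and 0 of 96 (CD4) between KO and Het. In CD8 cells these were 2 of 92 tested genes (2.17%) and in CD4 cells 2 of 96 (2.08%), against 0.0634% of all genes in CD8 and 0.0708% (KO) and 0.0865% (Het) in CD4 cells. Of the 50-base stretches of Tpm3-rs7, 69.4% occur in Tpm3, so the 2 calls cannot be taken as independent. The lists were chosen with earlier results of these data known, so these shares are no test of the lists. In libraries 3 and 4 alone, Tpm3 was not called in 3 of the 4 comparisons with WT. DESeq2 and limma called 0 between KO and Het as well. Of the 92 (CD8) and 96 (CD4) tested, 11 and 4 were past an unadjusted p of 0.05 in edgeR. Over all genes, 6.84% (CD8) and 3.66% (CD4) were past this level. Add3, an adducin of the membrane skeleton, was also called lower in CD4 Het than WT cells with DESeq2 and when edgeR's fit was blocked on the replicate number (-0.27, SE 0.05, adjusted p = 0.0490). Add3 was called lower too with library numbers 1 and 2 against 3 and 4 as a covariate. In libraries 1 and 2 alone, Coro1c, Cttn and Hcls1 were called higher in CD4 Het than WT cells, and Dstn lower in CD8 KO than Het cells.

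Between CD8 and CD4 cells, 17 of 99 listed genes were higher and 16 lower in KO (33.3% called), 24 higher and 18 lower in Het (42.4%) and 20 higher and 19 lower in WT cells (39.4%). Over all genes the shares were 24.1%, 34.9% and 31.2%. In a fit of the 8 KO libraries alone, 9 were higher and 12 lower. The median change in WT was -0.0034, against -0.02 for all genes tested. Among regulators of capping protein in WT cells, 3 of 7 were higher in CD8 and 2 lower. Cd2ap, an adaptor that binds capping protein, was lower, at 121 ± 6.84 CPM in CD8 and 180.0 ± 17.3 CPM in CD4 cells (SD, n = 4 each), a log2 change of -0.57 (SE 0.07, adjusted p = 1.26e-06 by edgeR). Its relative Sh3kbp1 was higher by 0.32 (SE 0.07, adjusted p = 0.000716 by edgeR). Washc2, of the WASH complex, was higher by 0.43, Mtpn, which sequesters capping protein, by 0.14, and Carmil1, which uncaps barbed ends, was lower by a change of -1.99 at a low and uneven level, 0.848 ± 0.423 CPM in CD8 and 3.39 ± 3.16 CPM in CD4 cells (SD, n = 4 each).

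Of 11 tested other barbed end binders in WT cells, 3 were higher in CD8 and 2 lower. The twinfilins Twf1 and Twf2, which bind actin monomers and capping protein, were higher by 0.44 (SE 0.09) and 0.36 (SE 0.09), and the adducin Add1 by 0.19. Scin, a severing and capping protein of the gelsolin family, was lower, at 0.748 ± 0.395 CPM in CD8 and 7.19 ± 1.51 CPM in CD4 cells (SD, n = 4 each), a log2 change of -3.22 (SE 0.43, adjusted p = 6.54e-06 by edgeR). Its relative Vill was lower too, at 0.0198 CPM in CD8, under the floor, and 1.25 CPM in CD4 cells. Of 20 genes of filament turnover 5 were higher and 4 lower. Limk1, the kinase that inactivates cofilin, was higher by 1.55 (SE 0.16) and Gmfg, a debranching factor of blood cells, by 1.34 (SE 0.16). Of the slingshot phosphatases that reactivate cofilin, Ssh3 was higher by 1.11, while Ssh1 and Ssh2 were lower by changes of -0.66 and -0.47. Among monomer binding proteins Tmsb4x was higher by 0.33 and Pfn1 by 0.24.

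Of 12 crosslinkers and linkers in WT cells, 3 were higher and 3 lower. Lcp1, Ezr and Actn4 were higher by 0.45, 0.59 and 0.21, and Actn1 and Fscn1 were among the lower, by changes of -1.22 and -4.10. Fscn1 was at a low level, with an average log2 CPM of 0.85 over all libraries. Of 16 genes of the Arp2/3 complex and its activators 2 were higher (Arpc3 and Was) and 3 lower (Cttn, Wipf1 and Wasf2), the largest change being -2.26 for Cttn, which stabilises branches. Of 14 formins and other nucleators, Diaph1 and Spire1 were higher by 0.53 and 0.58, and Diaph2 and Daam1 lower by changes of -0.35 and -0.50. Of 5 spectrin skeleton genes Epb41 and Sptb were lower, and of 6 genes of serum response factor and its coactivators Mrtfa was lower, by changes of -0.47, -1.57 and -0.31. Of the 20 listed genes called higher in CD8 WT cells, Limk1 had the largest change, below the 1.81 of Tmod1. In Het cells Mical2, an oxidase that disassembles filaments, was higher by 2.60, more than Tmod1. Mical2 was at a low level, with an average log2 CPM of -0.35 over all libraries. In WT cells its change was 1.19, not called in the main fit (adjusted p = 0.0552 by edgeR) and called with the replicate block (0.0380).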

How the data were processed

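RNA of 24 libraries was sequenced from poly(A) libraries (KAPA RNA HyperPrep, per the labels' protocols). The deposited count table holds whole-number gene counts, with 4 summary lines (31.6% to 35.0% of all reads counted in a library) left out of library totals. The submitters' processing notes name Trimmomatic 0.35, STAR 2.7.1a, DESeq2 1.26.0 and GRCm38. The authors' normalized values, a signal equal to the counts divided by 1 factor per library (0.840 to 1.558), were used only with limma, on the log2(value + 1) scale. No counts are of sample columns outside the labels.

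Counts were fitted with edgeR 4.0.16 (R 4.3.3): filterByExpr with a minimum count of 10, TMM factors, the quasi-likelihood F test, 2-sided, and Benjamini-Hochberg adjustment over all genes kept, called under 0.05. Genotypes were compared among the 12 libraries of a cell type (12612 genes in CD8, 12719 in CD4). Cell types, and differences of genotype effects between them, were compared in a fit of all 24 libraries (13288 genes). The scripts were tested on simulated data. Alternatives were RLE factors, library totals, no filter, DESeq2 1.42.0, limma 3.58.1, other sets of libraries in the fit, the replicate number as a block, library numbers 1 and 2 against 3 and 4, and leaving out each library. Standard errors and 95% intervals are those of the fitted log2 changes.

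Libraries held a median of 14000224.5 gene counts. Of 36 pairs of libraries within groups none was a duplicate, with chi-square values of at least 2.78 for each degree of freedom. Libraries of the same number deviated together in all CD4 genotype comparisons (correlations of 0.132 to 0.580) and in the comparisons of CD8 with CD4 cells (0.147 to 0.451). The labels give no reason for the numbers. The main fits compared group means without this pairing. The replicate block among the alternatives gave all groups of a fit the same term for a library number. By Xist and Ddx3y, CD8 and CD4 libraries of the same genotype and number agreed in sex. Between genotypes, libraries numbered 1, 2 and 3 did not all agree in sex. No fit paired CD8 with CD4 libraries within a genotype, so the tests between cell types leave out any such pairing. In the CD8 genotype comparisons at least 1 pair of each had a correlation under 0.1.

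Positions and exon lengths are those of GENCODE M21 on GRCm38. For Tpm4, whose identifier has another version there, the exon length was matched without the version. The members and gene lists were chosen with earlier results of these data known. Named genes were the members, Pou2af1, the nearest 3 tested genes on each side of Tmod3, listed genes called in a comparison or else those of lowest p, and the 5 genes most and 3 least alike to Tmod3 (mean of at least 1 CPM, prior count 2). Some listed genes are not reported here.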

Additional observations from a re-analysis of the deposited data

Results flagged for a closer look

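Within 42 sets of 4 libraries (7 genes in 6 groups), 1 value stood far from the rest of its group. Tmod3 was at 260.0 CPM in CD4 KO library 4, against 214 to 219.6 CPM in the other 3 CD4 KO libraries. The gap to the nearest of these was 0.879 of the range of the group, above Dixon's 95% critical value for 4 libraries. Chance gives such a value in about 1 of 20 groups. Over the 18 alternatives, those without this library among them, Tmod3 in CD4 KO minus Het cells stayed between 0.89 and 1.00 on the log2 scale.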

How the results depend on the processing

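The number of genes called over all genes depended on the setting most where few were called. For Het against WT in CD4 cells it was 11, and 19 with all 24 libraries in the fit, 73 with DESeq2, 45 with the replicate block, 79 with library numbers 1 and 2 against 3 and 4 as a covariate, 251 in libraries 1 and 2 alone and 56 in libraries 3 and 4 alone. For KO against Het in CD4 cells it was 2, and 13 in libraries 3 and 4. In CD8 cells KO against WT gave 8, and 5 in either set of 2 libraries, and Het against WT 8, and 4 in libraries 3 and 4. KO against Het in CD8 cells gave 2, and 19 with DESeq2, 242 in libraries 1 and 2 and 1 in libraries 3 and 4. CD8 against CD4 in KO cells gave 3198, and 1890 in a fit of the 8 libraries alone. Both differences of a genotype effect between cell types gave 1, and 0 in either set of 2 libraries.

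Leaving out 1 library gave 9 to 9, 7 to 9 and 2 to 2 calls for KO against WT, Het against WT and KO against Het in CD4 cells, and 7 to 8, 7 to 8 and 2 to 4 in CD8 cells. It gave 2678 to 3643, 3869 to 4426 and 3176 to 4025 for CD8 against CD4 in KO, Het and WT cells, and 1 to 1 for each difference of effects. The cause of these shifts was not tested.

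Of 212 values under alternatives for each gene, those of Tmod3 and Tmod1 kept their side of the threshold or moved by less than the spread, and the change of Tmod3 in KO against WT, near 0, took the other sign in 1 (CD4) and 3 (CD8). Tpm1 had no call, and 5 of its values moved by more than the spread. Capza1 lost a call in 7, Capzb in 7, Capza2 gained one in 4 and Tpm4 in 7. With the replicate block, calls of the 7 genes changed only for Capza2 in KO and Tpm4 in KO and Het cells. Tmod1 rested on 45 to 369 counts a library, with coefficients of variation within groups of 12.8% to 28.6%, the least precise of the 7 genes.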
